A study of Mus musculus with 26 samples.

Results

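Cultured osteoblasts of an old, iBP-treated control group, CON-OLD-iBP, were set against osteoblasts of young wild-type mice, YOUNG, to ask how far treated old cells stand from young ones. The comparison takes all genes of the 3 CON-OLD-iBP and 3 YOUNG libraries, 6 of the 18 RNA libraries in the series. The series also holds 8 libraries of a histone mark, which are not analysed here. The CON-OLD-iBP titles name an old control treated with iBP. The protocol text gives Ocncre Ai14 mice as the control line of the Kdm2b deletion. That line carries Cre recombinase under the osteocalcin promoter, which is active in mature osteoblasts, and a Cre-activated fluorescent reporter. The labels give no age in months for these mice, no dose and no duration, and do not expand the name iBP. YOUNG came from C57BL/6J mice of 3 months. OLD, C57BL/6J mice of 18 months with no treatment named, is placed beside both, and CON-YOUNG, the young control of the Cre line, serves as another young group. Cells of every group were isolated from the femur and grown in Dulbecco's modified Eagle's medium with fetal bovine serum. Treatment, age and mouse line all differ between CON-OLD-iBP and YOUNG, so their parts in any difference cannot be told apart. The labels leave unsaid whether the 3 replicates of a group had their own animals or cultures. Every p-value given here therefore reflects the scatter among these libraries, part of which may be technical.

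Osteoblasts build bone by secreting type I collagen, which is hydroxylated, folded and trimmed on its way out of the cell, and by mineralizing it with the help of alkaline phosphatase and acidic matrix proteins. The transcription factors Runx2 and Sp7 set the lineage, and parathyroid hormone, Wnt, FGF and IGF signals tune its output. Old bone is known for weaker matrix formation and for senescent cells. PRC1.1, the complex named in the series title, is a Polycomb complex that uses the DNA-binding subunit Kdm2b to place ubiquitin on histone H2A at CpG-rich promoters.

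The libraries held 46.49 to 55.82 in units of 1e6 counts in CON-OLD-iBP and 56.79 to 77.7 in YOUNG, and 16566 of 26264 symbols passed the filter on low counts. The YOUNG libraries were unlike one another. YOUNG 1 and 2 had 432 and 391 CPM (counts per library scaled to 1e6) of Xist, the RNA of the inactive X chromosome, and 0 CPM of the Y-linked gene Ddx3y. YOUNG 3 had 0.251 CPM of Xist and 70.4 CPM of Ddx3y, and the CON-OLD-iBP libraries had 66 to 75.6 CPM of Ddx3y and at most 0.0808 CPM of Xist. The nuclear RNA Malat1 made up 0.126% to 0.223% of the counts in CON-OLD-iBP and 0.178% in YOUNG 3, against 0.0386% and 0.0296% in YOUNG 1 and 2. The summed share of 26 macrophage markers was 0.0554%, 0.0715% and 0.11% in CON-OLD-iBP 1, 2 and 3, against 1.78%, 1.18% and 0.38% in YOUNG 1, 2 and 3. Many gene lists and some single genes are therefore also given against YOUNG 3, which shares the Malat1 range and the sex pattern of the treated libraries, and against YOUNG 1 and 2. This division was made from the data and is not a grouping of the study. Against YOUNG 1 and 2, the Malat1 and sex patterns differ along with treatment, age and mouse line, and their parts cannot be told apart. Osteoblast markers were present throughout. Runx2 stood at 39.2, 62.2 and 47.4 CPM in CON-OLD-iBP 1, 2 and 3, against 57.9, 76.95 and 46.2 CPM in YOUNG 1, 2 and 3, and Bglap, which encodes osteocalcin, at 31.8, 44.5 and 31.2 CPM in CON-OLD-iBP, against 64.2, 45.4 and 73.7 CPM in YOUNG. Counts of Bglap may be shared with its near-identical neighbour genes. The osteocyte gene Sost did not pass the filter.

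Treated old osteoblasts stood close to one young library and far from the other two. Between CON-OLD-iBP 1, 2 and 3 and YOUNG 3, 18.2%, 19.3% and 28% of the tested genes differed by more than 1 on the log2 CPM scale. The same measure was 37.1%, 30.7% and 39.6% to YOUNG 1, and 37.6%, 28.7% and 40.5% to YOUNG 2. Within groups it was 21.7% to 27.4% among the CON-OLD-iBP libraries, and among the YOUNG libraries it was 11.4% between 1 and 2 but 30.7% and 30.1% from these to YOUNG 3. CON-OLD-iBP 1, 2 and 3 thus all stood nearer to YOUNG 3 than YOUNG 1 and 2 did, CON-OLD-iBP 3 by the smallest margin. Spearman correlations across genes gave the same order, 0.9758, 0.9697 and 0.9581 to YOUNG 3 and 0.8877 to 0.9312 to YOUNG 1 and 2. These are descriptions of single libraries, and genes are not independent replicates. The OLD libraries were split. OLD 1 and 3, which share the Xist pattern and the low Malat1 share of YOUNG 1 and 2, differed from these at 15.2% to 17.1% of genes, while OLD 2, like the treated libraries, stood nearest to YOUNG 3, at 22.3%, against 26.6% and 25.9% to YOUNG 1 and 2.

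**Figure D1:**
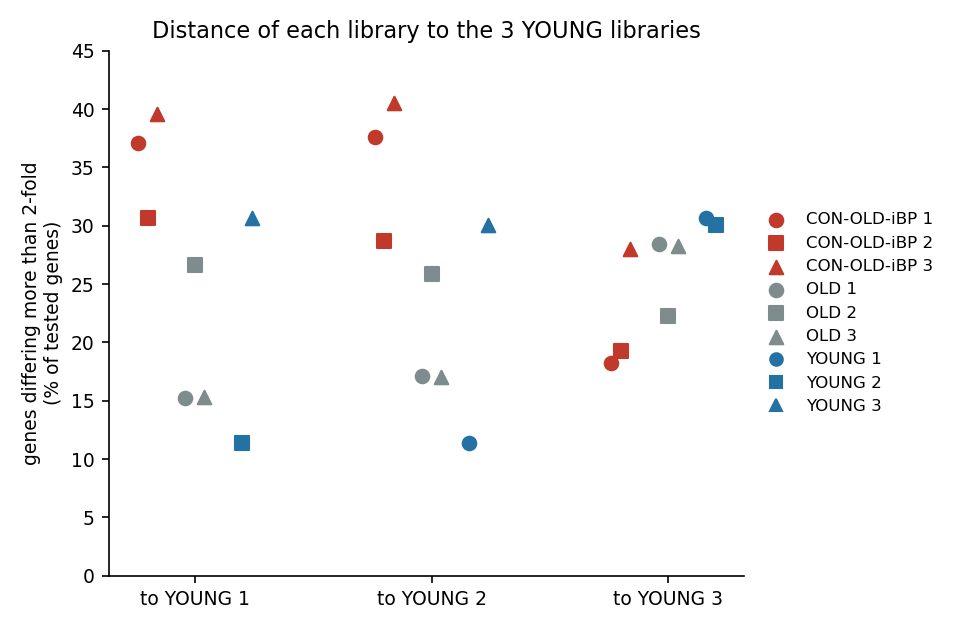
The vertical axis gives the percentage of tested genes that differ by more than 2-fold in CPM between a library (points) and YOUNG 1, 2 or 3 (horizontal axis). CON-OLD-iBP points (red) lie at 28.7% to 40.5% for YOUNG 1 and 2 and at 18.2% to 28% for YOUNG 3; OLD is grey, the other YOUNG libraries are blue, and symbol shape is the replicate number.

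Over the 3 YOUNG libraries together, no gene passed the threshold of 0.05 in edgeR's quasi-likelihood test (0.0% of 16566 genes, smallest adjusted p = 0.0611), although 3176 genes had an unadjusted p under 0.05. Of these, 1083 were on the higher side (6.54% of tested genes) and 2093 on the lower side (12.6%). DESeq2 called 1389 genes on the same libraries, 359 higher (2.17%) and 1030 lower (6.22%). Limma-voom with quality weights called 4889, 2392 higher (14.4%) and 2497 lower (15.1%). Its weights let libraries count unequally, so this count need not describe the 3 YOUNG libraries evenly. Its median absolute log2 fold change was 0.581, near the 0.585 of edgeR against YOUNG 1 and 2. For edgeR over all 3 YOUNG libraries it was 0.44. All 3 CON-OLD-iBP libraries lay above all 3 YOUNG libraries for 1475 genes (8.9%) and below them for 1988 genes (12.0%). The count turned on which young libraries were used. Against YOUNG 3 no gene was called by edgeR (0.0%, 1275 at an unadjusted p under 0.05), while against YOUNG 1 and 2 it called 2093 higher (12.6%) and 2638 lower (15.9%). Leaving YOUNG 3 out of the fit gave 2013 calls, and leaving out any other of the 6 libraries gave 0. With YOUNG 3 alone the young group is 1 library, whose spread is taken from the other groups, so the 0 does not show that the 2 are alike. Since no gene was called, the levels that follow are described by their values, and the words higher and lower refer to those values. Counts of list members called higher or lower against YOUNG 1 and 2 stand beside the 12.6% and 15.9% of all tested genes.

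Most osteoblast matrix genes lay lower in CON-OLD-iBP, whichever YOUNG libraries were used. Of 25 tested genes for bone matrix and mineral, 20 had a negative log2 fold change (median -0.63, against -0.01 over all tested genes). In 7 all treated libraries lay below all YOUNG libraries, beside 12.0% of all tested genes, and none lay above, beside 8.9%. The balance of signs was similar against YOUNG 3, with 20 negative and a median of -0.81, and against YOUNG 1 and 2, with 18 negative. Against YOUNG 1 and 2, 5 were called lower and 4 higher, beside 15.9% and 12.6% of all tested genes. The genes of the list together took 3.3%, 3.88% and 2.02% of the counts in CON-OLD-iBP 1, 2 and 3 and 5.06%, 5.07% and 5.62% in YOUNG 1, 2 and 3.

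Col1a1, one of the pair of chains of type I collagen, stood at 5485, 8735 and 2910 CPM in CON-OLD-iBP 1, 2 and 3, against 17330, 17140 and 13780 CPM in YOUNG 1, 2 and 3. Every treated library lay below every young one, YOUNG 3 included, and CON-OLD-iBP 3 was the lowest of all. Its log2 fold change was -1.49 ± 0.4 (SE) and its edgeR adjusted p 0.0737, with -1.27 against YOUNG 3 and -1.59 against YOUNG 1 and 2 (edgeR adjusted p = 0.00904). Col1a2, the partner chain, gave 4712, 6960 and 2443 CPM in CON-OLD-iBP, against 10800, 12130 and 10880 CPM in YOUNG, a log2 fold change of -1.26 (edgeR adjusted p = 0.0697), and the same separation of the groups. Smpd3, the sphingomyelinase needed for normal bone mineralization in mice, had 9.68, 4.73 and 2.29 CPM in CON-OLD-iBP, against 27.3, 26.6 and 24.9 CPM in YOUNG and a log2 fold change of -2.24 ± 0.51 (SE) (edgeR adjusted p = 0.0611). Its 3 YOUNG values were nearly equal, and every treated value lay far below the lowest of them.
Alpl, which encodes tissue-nonspecific alkaline phosphatase, had 207, 197 and 43.4 CPM in CON-OLD-iBP, against 461, 355 and 635 CPM in YOUNG. Ibsp, the integrin-binding bone sialoprotein, showed a wide gap at 92.03, 50.8 and 16.5 CPM in CON-OLD-iBP, against 1835, 1530 and 535 CPM in YOUNG (log2 fold change -4.61, edgeR adjusted p = 0.0943). It was also low in OLD 2, as the OLD libraries had 357, 4.28 and 363 CPM. Spp1, which encodes osteopontin and is also made by macrophages, did not separate the groups, with 12190, 12140 and 7128 CPM in CON-OLD-iBP, against 8164, 7001 and 18920 CPM in YOUNG.

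Upstream of the matrix genes the picture was mixed. Of 19 tested osteoblast transcription factors 10 were negative, and their median was -0.06. Sp7, the zinc finger factor that acts after Runx2, had 34.8, 78.5 and 25.6 CPM in CON-OLD-iBP, against 111, 122 and 109 CPM in YOUNG (log2 fold change -1.30 ± 0.44 (SE), edgeR adjusted p = 0.128), so that CON-OLD-iBP 2 came nearest to the young level. Runx2 itself overlapped between the groups. Twist2, a basic helix-loop-helix factor that restrains Runx2 in early osteoblasts, lay the other way, at 9.36, 18.5 and 28.5 CPM in CON-OLD-iBP, against 2.41, 1.57 and 6.99 CPM in YOUNG (log2 fold change 2.36, edgeR adjusted p = 0.0745). Prrx1, a homeobox factor of limb mesenchyme and skeletal progenitors, was also higher in every treated library, with 362, 556 and 494 CPM in CON-OLD-iBP, against 236, 305 and 265 CPM in YOUNG (log2 fold change 0.81, edgeR adjusted p = 0.0716).
Pth1r, the receptor for parathyroid hormone, stood at 23.6, 42.3 and 19.4 CPM in CON-OLD-iBP 1, 2 and 3, against 174, 147 and 107 CPM in YOUNG 1, 2 and 3. Every treated value lay far below the lowest YOUNG value, and the log2 fold change was -2.33 ± 0.48 (SE) (edgeR adjusted p = 0.0611), with -1.91 against YOUNG 3 and -2.49 against YOUNG 1 and 2. The list of 14 parathyroid hormone and vitamin D genes, Pth1r among them, had 8 positive members and a median of 0.01. Only 3, Pth1r included, lay below all YOUNG libraries, beside 12.0% of all tested genes, and 2 above, beside 8.9%.

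**Figure D2:**
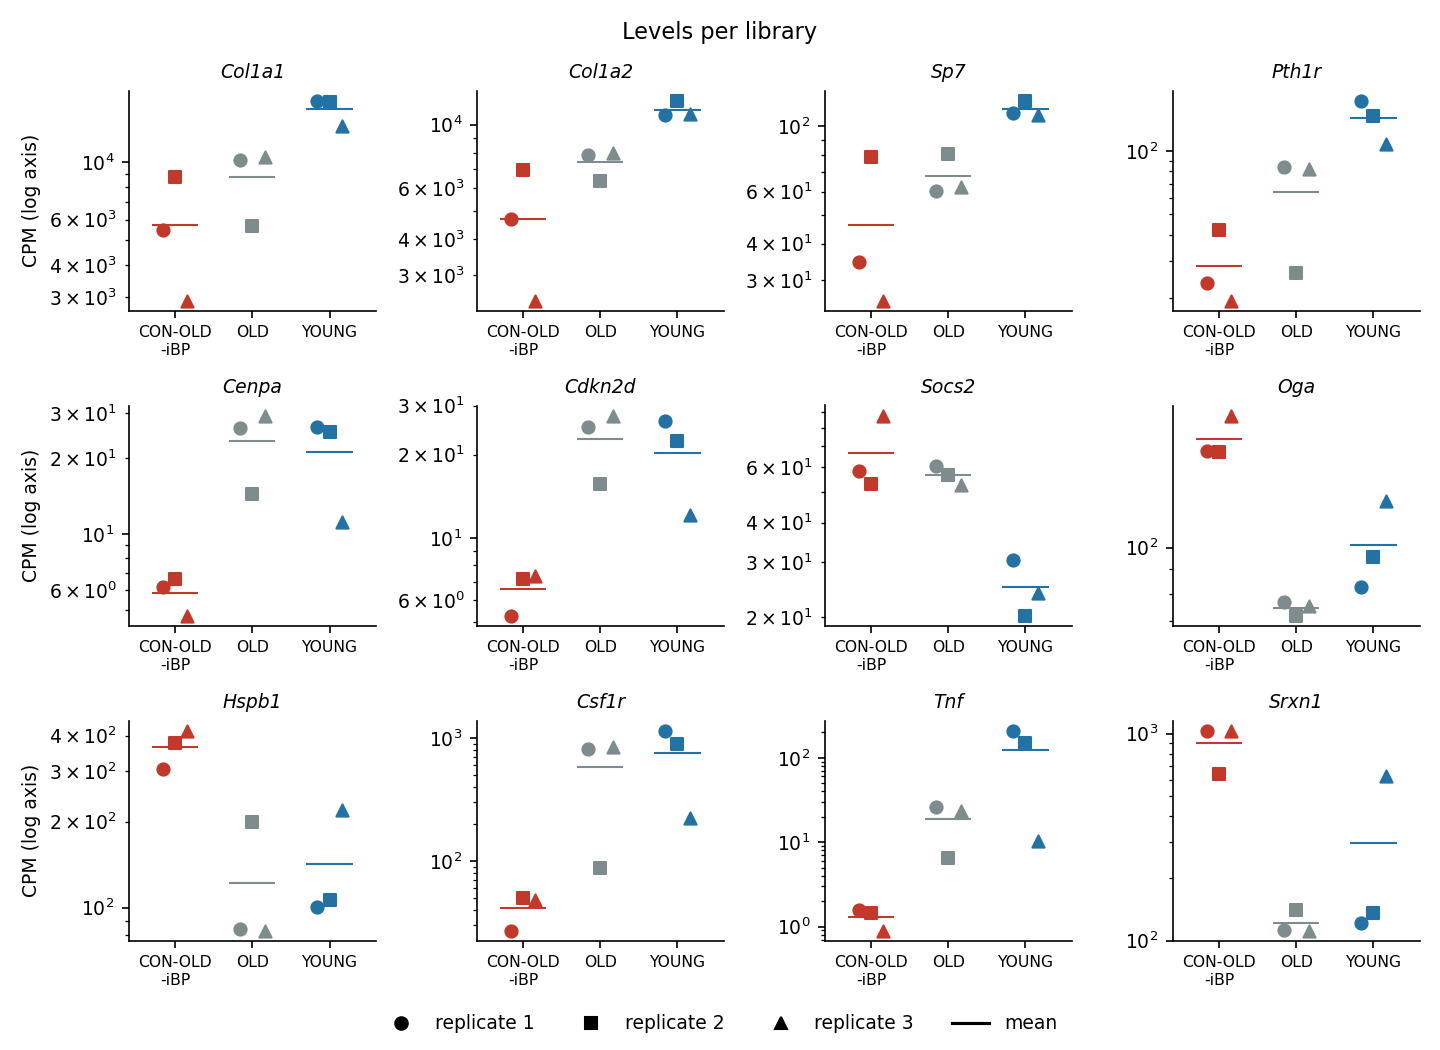
Each panel shows 1 gene, with CPM on a log axis for CON-OLD-iBP (red), OLD (grey) and YOUNG (blue); symbols mark the replicate number and lines the group mean. Col1a1, Col1a2, Sp7, Pth1r, Cenpa, Cdkn2d, Csf1r and Tnf lie lower in every CON-OLD-iBP library than in every YOUNG library, and Socs2, Oga, Hspb1 and Srxn1 lie higher, with YOUNG 3 the nearest YOUNG library to the treated ones except for Col1a2 and Socs2.

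The collagens as a family followed type I collagen only in part. Of 24 tested collagen genes 9 lay below all YOUNG libraries, beside 12.0% of all tested genes, and 1 lay above, beside 8.9%. The 1 above was Col7a1, the anchoring fibril collagen, with 54.9, 46.1 and 93.6 CPM in CON-OLD-iBP, against 11.1, 12.1 and 24.5 CPM in YOUNG. The collagens' summed share of counts was 2.08%, 2.64% and 1.12% in CON-OLD-iBP 1, 2 and 3, against 3.83%, 4.13% and 3.85% in YOUNG 1, 2 and 3, which is more uniform across the young libraries than most measures here. Col1a1 and Col1a2 belong both to this list and to the bone matrix list, so the summed shares of these lists are not independent. Their levels were far above those of the next fibrillar collagens. Col3a1 had 345, 971 and 365 CPM in CON-OLD-iBP, against 1857, 1663 and 1592 CPM in YOUNG, and Col5a1, which nucleates type I fibrils, had 871, 1338 and 655 CPM in CON-OLD-iBP, against 1879, 2333 and 2098 CPM in YOUNG. Col6a3, of the beaded filament collagen VI, depended on the young library, with 2698, 1378 and 735 CPM in CON-OLD-iBP, against 246, 462 and 2154 CPM in YOUNG.
Against YOUNG 3, 18 of the 24 collagens and 21 of 25 collagen processing genes were negative, with medians of -0.92 and -0.74. Against YOUNG 1 and 2 the processing list had a median of 0.13. The collagens there had a median of -0.13, with 13 negative and 11 positive, and 9 were called lower and 4 higher. P4ha1, a prolyl hydroxylase subunit that stabilizes the collagen helix, had 425, 364 and 165 CPM in CON-OLD-iBP, against 518, 566 and 659 CPM in YOUNG (log2 fold change -0.87, edgeR adjusted p = 0.0837). Serpinh1, the collagen chaperone of the endoplasmic reticulum, had 787, 860.0 and 563 CPM in CON-OLD-iBP, against 1269, 1196 and 1233 CPM in YOUNG, and Loxl2, a collagen crosslinking oxidase, had 119.9, 211 and 53.01 CPM in CON-OLD-iBP, against 466, 685 and 368 CPM in YOUNG. All 3 lay below every YOUNG library.
Genes of the unfolded protein response, which serve secretory cells, were negative in 16 of 21 cases over all YOUNG libraries and in 21 of 21 against YOUNG 3, with medians of -0.21 and -0.40. Against YOUNG 1 and 2 they were nearly balanced, with 12 negative, 9 positive and a median of -0.06. Their summed share of counts overlapped, at 0.856%, 0.74% and 0.554% in CON-OLD-iBP 1, 2 and 3, against 0.735%, 0.749% and 0.868% in YOUNG 1, 2 and 3. Edem1, which targets misfolded glycoproteins for degradation, had 84.3, 112 and 61.2 CPM in CON-OLD-iBP, against 189, 224 and 128 CPM in YOUNG (log2 fold change -1.07 ± 0.26 (SE), edgeR adjusted p = 0.0611). Xbp1, a transcription factor of this response, had 112, 117 and 68.4 CPM in CON-OLD-iBP, against 159, 145 and 164 CPM in YOUNG. In several members the low value was that of CON-OLD-iBP 3 alone: Hspa5, the main chaperone, had 1847, 1385 and 967 CPM in CON-OLD-iBP, against 1229, 1186 and 1758 CPM in YOUNG.

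Cell cycle genes were lower in CON-OLD-iBP than in YOUNG 1 and 2, and less so than in YOUNG 3. Of 40 tested members 39 had a negative log2 fold change over all YOUNG libraries (median -1.28), 29 had an unadjusted p under 0.05 on the lower side, and 11 had all treated libraries below all YOUNG libraries, a share above the 12.0% of all tested genes. Against YOUNG 1 and 2 edgeR called 38 lower and 1 higher. Against YOUNG 3, 32 were negative with a median of -0.36. Their summed share of counts was 0.0763%, 0.101% and 0.0748% in CON-OLD-iBP 1, 2 and 3, against 0.213%, 0.205% and 0.0946% in YOUNG 1, 2 and 3, and 0.202%, 0.161% and 0.203% in OLD.
Cenpa, the centromeric histone H3, stood at 6.18, 6.61 and 4.74 CPM in CON-OLD-iBP 1, 2 and 3, against 26.5, 25.4 and 11.1 CPM in YOUNG 1, 2 and 3 (log2 fold change -1.85 ± 0.41 (SE), edgeR adjusted p = 0.0611). The treated values were close together, and YOUNG 3 lay between them and the other young libraries, with log2 fold changes of -0.93 against YOUNG 3 and -2.15 against YOUNG 1 and 2 (edgeR adjusted p = 5.63e-05). Nusap1, a spindle protein, had 4.04, 5.89 and 4.7 CPM in CON-OLD-iBP, against 20.4, 22.99 and 8.4 CPM in YOUNG, and Kif23, a kinesin of cytokinesis, had 5.98, 11.1 and 5.43 CPM in CON-OLD-iBP, against 30.3, 30.9 and 12.6 CPM in YOUNG. Mki67, the proliferation marker Ki-67, followed the same order with 26.1, 40.1 and 30.7 CPM in CON-OLD-iBP, against 185, 195 and 58.6 CPM in YOUNG (log2 fold change -2.18, edgeR adjusted p = 0.0896).
The inhibitors of the cycle did not form the opposite pattern. Cdkn2d, the INK4 inhibitor p19, was itself the lower gene of smallest p among those with at least 5 CPM and groups that did not overlap, with 5.27, 7.17 and 7.34 CPM in CON-OLD-iBP, against 26.5, 22.4 and 12.1 CPM in YOUNG (log2 fold change -1.62 ± 0.28 (SE), edgeR adjusted p = 0.0611). Sesn1, a p53 target, had 7.56, 6.73 and 9.57 CPM in CON-OLD-iBP, against 42.7, 38.04 and 13.1 CPM in YOUNG. Cdkn1a, which encodes p21, and Cdkn2a, whose p16 product is used as a marker of senescent cells, overlapped between the groups, with 522, 514 and 509 CPM in CON-OLD-iBP and 597, 483 and 558 CPM in YOUNG for Cdkn1a, and 80.2, 167 and 176 CPM in CON-OLD-iBP and 205, 172 and 93.5 CPM in YOUNG for Cdkn2a. Of the 25 genes of that list 17 were negative, with a median of -0.14.

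Macrophage genes had the lowest median of the lists with at least 10 tested members. All 26 tested markers were negative (median -4.17). Below every YOUNG library lay 24, beside 12.0% of all tested genes, and 25 were called lower against YOUNG 1 and 2, beside 15.9%. In bulk RNA, fewer cells of a type and less RNA per cell cannot be told apart. Csf1r, the receptor for macrophage colony stimulating factor, had 27.03, 49.8 and 47.7 CPM in CON-OLD-iBP, against 1148, 885 and 224 CPM in YOUNG (log2 fold change -4.18 ± 0.9 (SE), edgeR adjusted p = 0.0611). Adgre1, which encodes F4/80, had 6.89, 14.3 and 12.1 CPM in CON-OLD-iBP, against 529, 421 and 92.1 CPM in YOUNG, and Mrc1, the mannose receptor, had 2.91, 3.8 and 5.27 CPM in CON-OLD-iBP, against 331, 187 and 26.6 CPM in YOUNG. The treated libraries kept low levels of nearly all markers, and only Ccr2, a receptor of monocytes, was at 0 counts in all 3 of them. It was also at 0 in YOUNG 3.
Some genes of inflammation were, like the macrophage markers, highest in YOUNG 1 and 2, but the list of secreted genes was not. Tnf, the cytokine, had 1.58, 1.43 and 0.892 CPM in CON-OLD-iBP, against 210.3, 149.8 and 10.4 CPM in YOUNG (log2 fold change -6.57 ± 1.2 (SE), edgeR adjusted p = 0.0611), and its regulator Tnfaip3 had 16.5, 16.02 and 12.9 CPM in CON-OLD-iBP, against 149, 158 and 19.2 CPM in YOUNG. Of 31 secreted senescence and inflammation genes 19 were negative, 4 lay below all YOUNG libraries, close to the 12.0% of all tested genes, and 1 lay above, beside 8.9%. Against YOUNG 1 and 2, 11 were called higher and 10 lower, with a median of -0.02, and against YOUNG 3, 22 were negative with a median of -0.32. Their summed share of counts was 0.953%, 0.778% and 0.679% in CON-OLD-iBP 1, 2 and 3, against 0.383%, 0.332% and 0.932% in YOUNG 1, 2 and 3, so every treated library lay above YOUNG 1 and 2. Among 26 immediate early genes, which respond within minutes to stimulation or handling, 18 were negative. In this list 8 lay below all YOUNG libraries, beside 12.0% of all tested genes. The median was -0.93 against YOUNG 1 and 2 and -0.11 against YOUNG 3, with 17 negative in both. Atf3 had 17.9, 9.23 and 14.8 CPM in CON-OLD-iBP, against 318, 212 and 28.99 CPM in YOUNG, and Zfp36 had 74.9, 100.5 and 60.6 CPM in CON-OLD-iBP, against 638, 523 and 147 CPM in YOUNG. Egr2 had 6.18, 8.73 and 7.68 CPM in CON-OLD-iBP, against 90.1, 43.4 and 6.66 CPM in YOUNG, so for this gene YOUNG 3 was within the treated range. Of 15 MHC genes 12 were negative and 7 lay below all YOUNG libraries, beside 12.0% of all tested genes. Their median was -1.18 against YOUNG 3. H2-D1, a class I heavy chain whose counts may be shared with its paralogs, had 233, 339.8 and 166 CPM in CON-OLD-iBP, against 983, 750.4 and 556 CPM in YOUNG, and B2m, the class I light chain, had 279.8, 492 and 279 CPM in CON-OLD-iBP, against 919.6, 789 and 541 CPM in YOUNG. Igf1, a growth factor made by osteoblasts and macrophages, had 40.3, 33.7 and 63.2 CPM in CON-OLD-iBP, against 378, 203 and 82.9 CPM in YOUNG. Whether the macrophage share contributes to these values was not tested.

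Of the 12 genes of smallest p on the lower side, several belong to blood-derived cells: Lmo2, a haematopoietic transcription cofactor, had 1.11, 1.85 and 1.7 CPM in CON-OLD-iBP, against 84.7, 54.1 and 7.65 CPM in YOUNG, and Mertk, a phagocyte receptor for dying cells, had 2.2, 4.44 and 2.51 CPM in CON-OLD-iBP, against 37.3, 32.8 and 12.6 CPM in YOUNG. Slamf7, Tnfsf9, Hvcn1 and Arhgap25 are also known from leukocytes, and their log2 fold changes were -4.06, -3.51, -2.64 and -4.16. Others are known for other roles. Slc43a2, a transporter of large neutral amino acids, had 33.4, 53.8 and 26.8 CPM in CON-OLD-iBP, against 225, 209 and 131 CPM in YOUNG, with every treated value well below every YOUNG one. It was at 41.2, 36.6 and 44.1 CPM in CON-YOUNG, within the treated range, with a log2 fold change of -0.10 against that group (edgeR adjusted p = 0.89). Arhgap19, which acts in dividing cells, had 0.545, 3.17 and 2.13 CPM in CON-OLD-iBP, against 40.1, 37.4 and 8.57 CPM in YOUNG, and Zranb3, a DNA helicase of the replication fork, had 2.00, 4.57 and 3.06 CPM in CON-OLD-iBP, against 84.4, 57.3 and 6.04 CPM in YOUNG. Against CON-YOUNG the log2 fold changes were -2.49 for Arhgap19 (edgeR adjusted p = 0.031), -1.62 for Zranb3 (edgeR adjusted p = 0.131) and -0.25 for Lmo2 (edgeR adjusted p = 0.858). Smagp, a small transmembrane glycoprotein, had a log2 fold change of -5.32 against YOUNG. All had an edgeR adjusted p of 0.0611 against YOUNG.

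**Figure D3:**
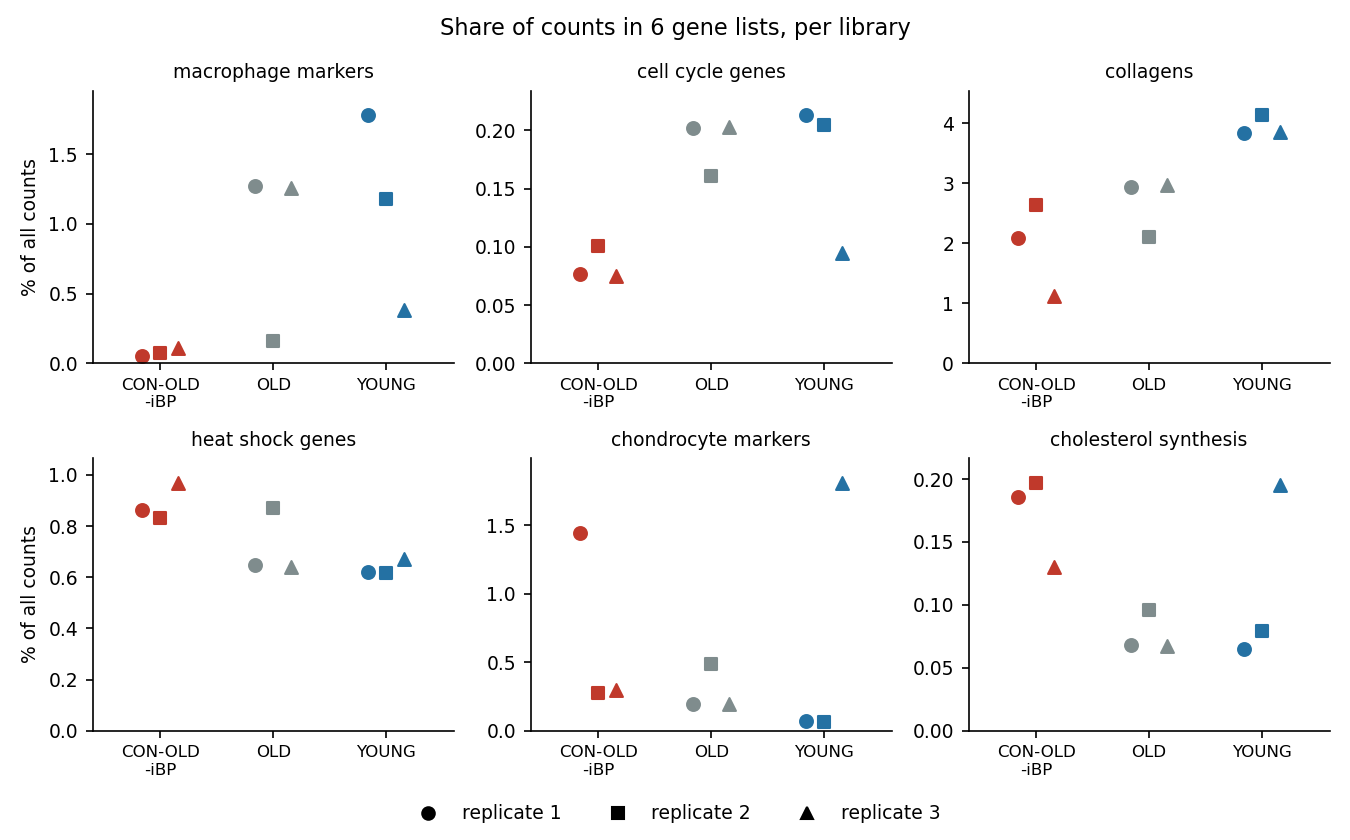
Each panel gives the percentage of all counts of a library that falls on the genes of 1 list, for CON-OLD-iBP (red), OLD (grey) and YOUNG (blue), with symbols for the replicate number. Collagens are lower (1.12% to 2.64%, against 3.83% to 4.13%) and heat shock genes higher (0.83% to 0.969%, against 0.618% to 0.672%) in every treated library than in every YOUNG library; for the cell cycle, chondrocyte and cholesterol lists YOUNG 3 stands apart from YOUNG 1 and 2.

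On the higher side, Socs2, which dampens growth hormone signalling, had the smallest p among genes with at least 5 CPM and groups that did not overlap: 58.3, 53.2 and 87.6 CPM in CON-OLD-iBP 1, 2 and 3, against 30.5, 20.2 and 23.9 CPM in YOUNG 1, 2 and 3. The lowest treated value was above the highest young one, the log2 fold change was 1.41 ± 0.24 (SE) (edgeR adjusted p = 0.0611), and it was nearly the same against YOUNG 3 (1.47) and against YOUNG 1 and 2 (1.39). The OLD libraries were also at this level, with 60.5, 56.5 and 52.6 CPM. Oga, the enzyme that removes O-linked N-acetylglucosamine from proteins, had 160.0, 159 and 189.6 CPM in CON-OLD-iBP, against 82.5, 95.5 and 126 CPM in YOUNG (log2 fold change 0.74 ± 0.15 (SE)). Here OLD did not share the level, with 76.8, 71.9 and 75.5 CPM. Pla2g2e, a secreted phospholipase, had 23.7, 8.38 and 10.6 CPM in CON-OLD-iBP, against 0.572, 0.319 and 1.89 CPM in YOUNG, and Clic5, a chloride intracellular channel protein, had 3.48, 13.7 and 5.49 CPM in CON-OLD-iBP, against 0.318, 0.768 and 0.695 CPM in YOUNG.
Foxp1, a forkhead transcription factor, had 95.3, 107 and 128 CPM in CON-OLD-iBP, against 60.7, 68.99 and 73.5 CPM in YOUNG, and Rars, the arginyl-tRNA synthetase, had 189.8, 217 and 211 CPM in CON-OLD-iBP, against 136, 129 and 139 CPM in YOUNG. Numbl, Trip10, Rassf8, Uaca, Pakap and D5Ertd579e completed the 12 genes of smallest p, with log2 fold changes of 0.85, 0.85, 1.55, 1.52, 1.81 and 0.69. All 12 had an edgeR adjusted p of 0.0611.

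Among the lists with at least 10 tested members, heat shock genes had the largest share above every YOUNG library, at 9 of 20, beside 8.9% of all tested genes. The median log2 fold change was small, at 0.22, with 0.18 against YOUNG 3 and 0.27 against YOUNG 1 and 2. The list took 0.861%, 0.83% and 0.969% of the counts in CON-OLD-iBP 1, 2 and 3, and 0.622%, 0.618% and 0.672% in YOUNG 1, 2 and 3. OLD 2 reached 0.87%, while OLD 1 and 3 had 0.646% and 0.641%. Hspb1, the small heat shock protein 27, had 305, 375 and 417 CPM in CON-OLD-iBP, against 101, 106 and 220.4 CPM in YOUNG (log2 fold change 1.36 ± 0.37 (SE), edgeR adjusted p = 0.0773). Hsp90aa1, the inducible cytosolic chaperone, had 963, 920.0 and 1187 CPM in CON-OLD-iBP, against 515, 627 and 785 CPM in YOUNG, and Hspa4, a nucleotide exchange factor for the chaperone Hsp70, had 419.7, 485 and 508 CPM in CON-OLD-iBP, against 308, 308 and 356 CPM in YOUNG. Cryab, the small chaperone alpha-B crystallin, had 1816, 1109 and 1360 CPM in CON-OLD-iBP, against 145, 133 and 845 CPM in YOUNG. The classical stress-induced Hspa1a did not lie higher, with 36.7, 35.2 and 19.4 CPM in CON-OLD-iBP, against 35.7, 39.97 and 34.3 CPM in YOUNG, so the members did not all lie on one side.

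Most Hox genes had positive log2 fold changes. Of 35 tested Hox genes, which keep the positional identity of skeletal cells, 30 were positive (median 0.76). Above every YOUNG library lay 7, beside 8.9% of all tested genes, and none lay below, beside 12.0%. Against YOUNG 3, 27 were positive and the median was 0.70. Hoxd8 had 10.2, 10.2 and 16.6 CPM in CON-OLD-iBP, against 7.04, 3.03 and 4.73 CPM in YOUNG (log2 fold change 1.32 ± 0.32 (SE), edgeR adjusted p = 0.0639) and Hoxa5 had 12.3, 6.31 and 12.8 CPM in CON-OLD-iBP, against 5.49, 4.62 and 5.95 CPM in YOUNG (log2 fold change 0.96, edgeR adjusted p = 0.0702). Hoxa9 had 38.9, 21.1 and 35.03 CPM in CON-OLD-iBP, against 10.1, 12.1 and 26.2 CPM in YOUNG, where CON-OLD-iBP 2 lay below YOUNG 3. For several HoxB genes CON-OLD-iBP 3 was alone, as in Hoxb9, with 3.23, 2.22 and 21.1 CPM in CON-OLD-iBP, against 2.26, 0.594 and 0.888 CPM in YOUNG. Of 65 developmental transcription factors 44 were positive (median 0.40, and 0.31 against YOUNG 3) and 8 lay above all YOUNG libraries, near the 8.9% of all tested genes. Sox11, a factor of embryonic progenitors, went the other way with 1.13, 0.899 and 0.507 CPM in CON-OLD-iBP, against 6.59, 6.6 and 9.06 CPM in YOUNG (log2 fold change -3.13 ± 0.64 (SE), edgeR adjusted p = 0.0611), and OLD had 1.13, 1.31 and 1.16 CPM.
Of 23 FGF genes 13 were positive and 10 negative, and 9 lay above all YOUNG libraries, beside 8.9% of all tested genes. Another 3 lay below them, near the 12.0% of all genes. Against YOUNG 1 and 2, 10 were called higher and 1 lower, and against YOUNG 3, 15 were positive. The ligands stood out by size: Fgf10, a mesenchymal ligand, had 98.7, 91.4 and 127 CPM in CON-OLD-iBP, against 8.88, 11.2 and 29.8 CPM in YOUNG, and Fgf18, which acts on bone and cartilage growth, had 20.1, 18.9 and 19.8 CPM in CON-OLD-iBP, against 0.762, 0.333 and 8.5 CPM in YOUNG. Each had a wide error over the 3 YOUNG libraries, with log2 fold changes of 2.67 ± 1.4 (SE) and 2.62 ± 1.6 (SE). Of the feedback inhibitors, Spred1 had 268, 201 and 214 CPM in CON-OLD-iBP, against 177, 149 and 166 CPM in YOUNG, and Spred2 had 53.5, 85.8 and 50.01 CPM in CON-OLD-iBP, against 30.3, 40.9 and 41.4 CPM in YOUNG. The receptor Fgfr2, which promotes osteoblast differentiation, lay lower, with 32.6, 31.7 and 16.8 CPM in CON-OLD-iBP, against 58.7, 82.8 and 57.6 CPM in YOUNG (log2 fold change -1.30 ± 0.35 (SE), edgeR adjusted p = 0.0761).

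For several lists the direction depended on the young library. Cholesterol synthesis genes were positive in 20 of 24 cases over all YOUNG libraries, yet negative in 21 of 24 against YOUNG 3 (median -0.32), while 16 were called higher against YOUNG 1 and 2 (median 1.25). Hsd17b7, an enzyme of the pathway, had 170.0, 166 and 127 CPM in CON-OLD-iBP, against 28.1, 44.1 and 131 CPM in YOUNG. Interferon response genes were negative in 30 of 35 cases over all YOUNG libraries and positive in 21 of 35 against YOUNG 3. Isg15, a ubiquitin-like product of interferon, had 7.5, 10.5 and 11.6 CPM in CON-OLD-iBP, against 34.1, 21.9 and 6.55 CPM in YOUNG. Glycolysis and hypoxia genes had a median of 0.00 over all YOUNG libraries and were negative in 28 of 31 cases against YOUNG 3. Markers of smooth muscle and pericytes were negative in 10 of 14 cases and positive in 11 of 14 against YOUNG 3. Cnn1, a contractile protein, had 1.62, 17.7 and 12.6 CPM in CON-OLD-iBP, against 88.4, 107 and 7.18 CPM in YOUNG.
Chondrocyte markers showed the widest split. Their median was 4.72 against YOUNG 1 and 2, where 6 of 18 were called higher, and -1.87 against YOUNG 3, where 15 were negative. Col2a1, the collagen of cartilage, was dominated by single libraries of both groups, with 7591, 12.1 and 264 CPM in CON-OLD-iBP, against 47.98, 27.4 and 13550 CPM in YOUNG. CON-OLD-iBP 1 and YOUNG 3 were the high ones, and the other libraries of each group lay far below. The share of counts in these markers was 1.44% in CON-OLD-iBP 1 and 1.81% in YOUNG 3, against 0.279% and 0.297% in CON-OLD-iBP 2 and 3 and 0.0701% and 0.0614% in YOUNG 1 and 2. Srxn1, sulfiredoxin of the antioxidant response, was above every YOUNG library with 1035, 639 and 1026 CPM in CON-OLD-iBP, against 122, 136 and 627 CPM in YOUNG, but its log2 fold change was 0.52 against YOUNG 3 and 2.80 against YOUNG 1 and 2. Pdgfra, a receptor of mesenchymal progenitors, had 368, 256 and 169 CPM in CON-OLD-iBP, against 31.2, 17.3 and 178 CPM in YOUNG, and YOUNG 3 lay within the treated range.

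**Figure D4:**
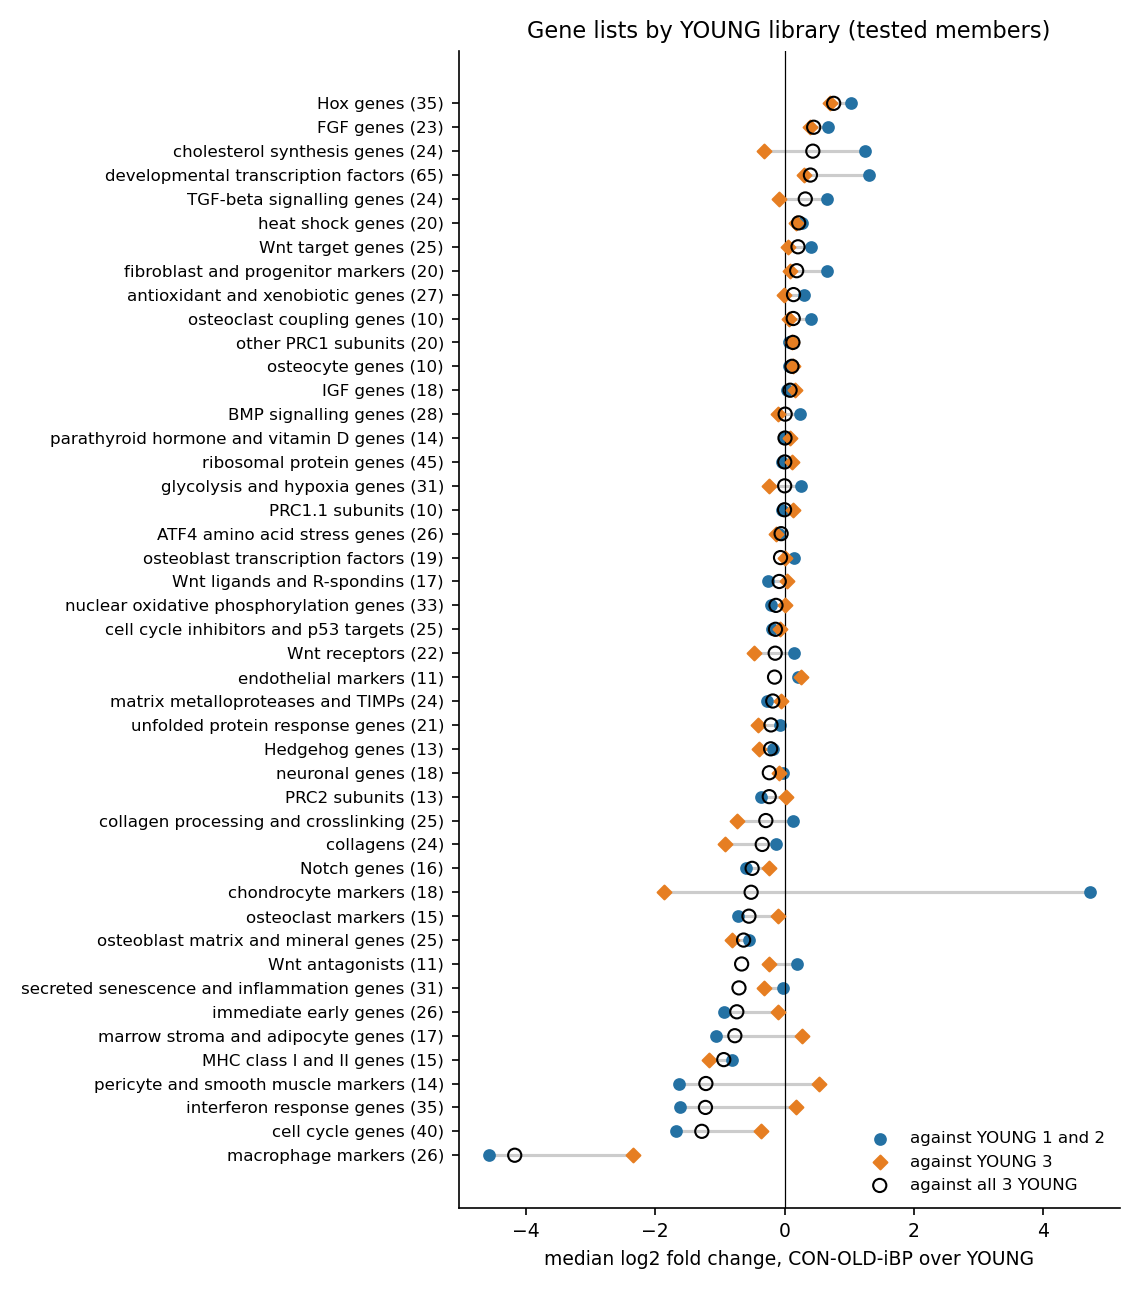
For each gene list with at least 10 tested members (their number in brackets), the horizontal axis gives the median log2 fold change of CON-OLD-iBP over YOUNG 1 and 2 (blue), YOUNG 3 (orange) and all 3 YOUNG libraries (open circles). Macrophage, cell cycle, collagen and osteoblast matrix lists lie left of 0 and Hox, FGF and heat shock lists right of it in all 3; the chondrocyte (4.72 and -1.87) and cholesterol (1.25 and -0.32) lists lie on opposite sides.

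Kdm2b, the DNA-binding subunit of PRC1.1, had 19.2, 24.03 and 16.2 CPM in CON-OLD-iBP 1, 2 and 3, against 37.2, 37.5 and 22.6 CPM in YOUNG 1, 2 and 3. CON-OLD-iBP 2 lay above YOUNG 3, so the groups overlapped, and the log2 fold change of -0.71 ± 0.41 (SE) was not called (edgeR adjusted p = 0.368). It was -0.19 against YOUNG 3 and -0.91 against YOUNG 1 and 2 (edgeR adjusted p = 0.0416). The 45 ribosomal protein genes tested had a median of 0.00, and so did the 10 PRC1.1 subunits, 5 positive and 5 negative. Pcgf1, the subunit that defines the complex, had 13.3, 8.75 and 19.1 CPM in CON-OLD-iBP, against 7.72, 6.7 and 10.2 CPM in YOUNG. In PRC2, the methyltransferase complex of Polycomb, 9 of 13 genes were negative over all YOUNG libraries. Against YOUNG 3, 8 were positive and 5 negative, with a median of 0.03, beside -0.36 against YOUNG 1 and 2. Aebp2, an accessory subunit, lay above every YOUNG library with 169.7, 153 and 218 CPM in CON-OLD-iBP, against 75.95, 88.2 and 129 CPM in YOUNG (log2 fold change 0.88 ± 0.21 (SE), edgeR adjusted p = 0.0611). Phf19, another accessory subunit, lay below with 1.78, 3.3 and 0.831 CPM in CON-OLD-iBP, against 10.3, 11.1 and 3.92 CPM in YOUNG (log2 fold change -2.10 ± 0.51 (SE), edgeR adjusted p = 0.0611). Ezh2, the catalytic subunit, which is known to follow proliferation, had 12.2, 10.9 and 9.77 CPM in CON-OLD-iBP, against 33.5, 32.5 and 12.8 CPM in YOUNG.
The lists of the Wnt pathway, named with PRC1.1 in the series title, did not move together. Of 22 Wnt receptors 16 were negative against YOUNG 3 (median -0.47), and 13 were positive against YOUNG 1 and 2 (median 0.15). The Wnt target genes showed no common direction against YOUNG 3 and leaned higher against YOUNG 1 and 2. Of 25 Wnt target genes 16 were positive (median 0.21, and 0.06 against YOUNG 3), and 1 lay above all YOUNG libraries, beside 8.9% of all tested genes. Against YOUNG 1 and 2, the median was 0.41 with 18 positive, and edgeR called 9 higher and 3 lower. Axin2, the feedback target most used as a readout, had 7.27, 16.02 and 12.4 CPM in CON-OLD-iBP, against 2.81, 2.99 and 9.5 CPM in YOUNG: CON-OLD-iBP 2 and 3 were above YOUNG 3 and CON-OLD-iBP 1 below it. Its log2 fold change was 1.22 ± 0.62 (SE) (edgeR adjusted p = 0.302). Ccn4, a Wnt-induced matrix protein, ran the other way, with 25.03, 72.9 and 23.1 CPM in CON-OLD-iBP, against 155, 165 and 62.6 CPM in YOUNG. Of the 17 ligands and R-spondins 10 were negative, while against YOUNG 3, 9 were positive and 8 negative. Against YOUNG 1 and 2, 10 of these were negative (median -0.26), with 5 called higher and 3 lower. Above all YOUNG libraries lay 3, beside 8.9% of all tested genes, and below them 1, beside 12.0%. The 1 below was Wnt10b, a ligand that promotes bone formation, with 6.38, 13.9 and 2.84 CPM in CON-OLD-iBP, against 17.03, 15.5 and 17.03 CPM in YOUNG.

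A second young group bears on the same question without the difference in mouse line. CON-YOUNG carries the driver and reporter of the treated control line, and its macrophage marker share was 0.0217% to 0.0521%, below that of CON-OLD-iBP. Against CON-YOUNG, edgeR called 1680 genes, 511 higher (3.08% of tested genes) and 1169 lower (7.06%). CON-YOUNG 1 and 2 have the low Malat1 share of YOUNG 1 and 2, and CON-YOUNG 3 the high one, so this comparison also crosses the division of libraries.
Several collagen genes fell in this comparison. Col1a1 had 5485, 8735 and 2910 CPM in CON-OLD-iBP, against 32710, 30300 and 17330 CPM in CON-YOUNG, and fell (log2 fold change -2.23 ± 0.41 (SE), edgeR adjusted p = 0.0105), and of the 24 collagens 8 were called lower and none higher. Pth1r had 241, 160.2 and 64.3 CPM in CON-YOUNG and fell by the same test (log2 fold change -2.45, edgeR adjusted p = 0.0143), as did Sp7 with 248, 167 and 73.02 CPM in CON-YOUNG (log2 fold change -1.81, edgeR adjusted p = 0.0241). The wider bone matrix list was divided. Of its 25 genes 15 were positive (median 1.05), yet 5 were called lower and 2 higher, and its summed share of counts was 2.02% to 3.88% in CON-OLD-iBP, against 5% to 6.82% in CON-YOUNG. Bglap was nearly absent from CON-YOUNG, at 0.15, 0 and 9.88 CPM.
Of the 40 cell cycle genes all were negative and 33 were called lower. Cenpa had 6.18, 6.61 and 4.74 CPM in CON-OLD-iBP, against 30.3, 33.2 and 17.7 CPM in CON-YOUNG (log2 fold change -2.21, edgeR adjusted p = 0.0109), and Cdkn2d fell too, with 19.3, 14.1 and 16.2 CPM in CON-YOUNG (log2 fold change -1.32, edgeR adjusted p = 0.0153). Among the genes that lay higher, Socs2 rose, with 58.3, 53.2 and 87.6 CPM in CON-OLD-iBP, against 26.4, 35.7 and 32.5 CPM in CON-YOUNG (log2 fold change 1.07, edgeR adjusted p = 0.0187), and so did Oga, with 95.8, 105 and 88.8 CPM in CON-YOUNG (log2 fold change 0.81, edgeR adjusted p = 0.0109). Axin2 rose as well, with 7.27, 16.02 and 12.4 CPM in CON-OLD-iBP, against 1.52, 1.42 and 4.38 CPM in CON-YOUNG (log2 fold change 2.29, edgeR adjusted p = 0.0387), although the 25 Wnt targets had a median of -0.13 and 10 were positive.
These calls depended on single libraries. Leaving out CON-YOUNG 1 gave 29 calls, CON-YOUNG 2 gave 18, CON-OLD-iBP 1 gave 136, CON-OLD-iBP 3 gave 210 and CON-YOUNG 3 gave 4492, while leaving out CON-OLD-iBP 2 gave 1791. Within the high Malat1 libraries, against CON-YOUNG 3 alone, the log2 fold changes were -1.60 for Cenpa, -1.29 for Cdkn2d and 0.93 for Oga. They were -1.60 for Col1a1, -0.66 for Sp7, -1.18 for Pth1r, 1.03 for Socs2 and 1.44 for Axin2, so all of these genes kept their sign. With CON-YOUNG 3 alone that group is 1 library, whose spread is taken from the other groups, so no calls are given.
The lists did not all keep their side. Hox genes had 21 of 35 negative against CON-YOUNG and heat shock genes 10 of 20, and macrophage markers had 22 of 26 positive, with 1 called higher. Csf1r had 27.03, 49.8 and 47.7 CPM in CON-OLD-iBP, against 11.9, 13.1 and 33.96 CPM in CON-YOUNG.

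OLD was compared with the same YOUNG libraries, and the comparisons share them. EdgeR called 0 genes in OLD against YOUNG (0.0%), and 554 genes had an unadjusted p below the same 0.05. There were 41 calls by DESeq2 and 1125 by limma-voom. The osteoblast matrix list had a median of -0.87 in OLD against YOUNG, with 23 of 25 negative, beside -0.63 in CON-OLD-iBP against YOUNG, and the collagens had -0.58 beside -0.34. Col1a1 was at 10220, 5648 and 10480 CPM and Pth1r at 84.2, 26.4 and 81.8 CPM in OLD. The cell cycle list had a median of 0.10 in OLD against YOUNG.
Tested directly, CON-OLD-iBP and OLD differed in 4 genes (0.0241% of tested genes, 3869 at an unadjusted p under 0.05). Oga had 160.0, 159 and 189.6 CPM in CON-OLD-iBP, against 76.8, 71.9 and 75.5 CPM in OLD, and rose (log2 fold change 1.18 ± 0.15 (SE), edgeR adjusted p = 0.0214). Dok5, an adaptor of receptor tyrosine kinases, had 73.02, 45.7 and 56.7 CPM in CON-OLD-iBP, against 10.5, 11.5 and 10.7 CPM in OLD, and rose (log2 fold change 2.42, edgeR adjusted p = 0.0459). Cdkn2d fell, with 5.27, 7.17 and 7.34 CPM in CON-OLD-iBP, against 25.1, 15.7 and 27.6 CPM in OLD (log2 fold change -1.79, edgeR adjusted p = 0.0459). In YOUNG, Dok5 had 14.9, 11.9 and 38.1 CPM, below every treated library. The calls rest on single libraries: leaving out CON-OLD-iBP 1 or 3, or OLD 1 or 3, gave 0, and leaving out CON-OLD-iBP 2 gave 118 and OLD 2 gave 1346. OLD 1 and OLD 3 were more alike than any other pair of one group, at 6.22 times counting noise in the median gene, against 15.5 to 187 in the others.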

How the data were processed

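RNA was sequenced in 18 libraries of cultured mouse femoral osteoblasts, 3 in each of 6 groups taken from the submitters' titles. The values the authors deposited are whole-number read counts for each gene symbol, without normalization. FastQC, Trim Galore, HISAT2 and the genome build mm39 are named in the submitters' processing notes. How reads were counted, with which annotation and whether by strand, is not given in the sources used here, so overlapping and antisense genes cannot be told apart.

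Genes were kept by filterByExpr (minimum count 10, minimum total 15), scaled by TMM and put to the robust quasi-likelihood test of edgeR, with all 18 libraries fitted as 6 group means (12 residual degrees of freedom) and Benjamini-Hochberg adjustment over 16566 genes, threshold 0.05. The script was tested on simulated data. Libraries were placed in 3 sets, those with a Malat1 share above 0.05% of counts, and those below it divided into wild-type (YOUNG, OLD) and Cre-line groups, and a fit that split each group by set (10 coefficients, leaving 8 degrees of freedom) gave the values against YOUNG 3 and against YOUNG 1 and 2. Alternatives were other scalings, no filter, DESeq2, limma-voom, the 6 libraries alone, a replicate block, a term for library set, each library left out, and CON-YOUNG in place of YOUNG. CPM use TMM-scaled library sizes, log2 CPM for distances a prior count of 2, and list shares the raw total. Tests ran in R 4.3.3 with DESeq2 1.42.0, edgeR 4.0.16 and limma 3.58.1, and figures in Python 3.11.15 with matplotlib 3.10.9.

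The comparison, the 48 gene lists and the rule for named genes were chosen with earlier results of these data known. The rule takes Kdm2b, the 12 genes of smallest p in each direction (none being called) whose groups do not overlap and whose higher group reaches 5 CPM, and up to 3 members of smallest p in each list. Xist, genes of the Y chromosome and predicted symbols were not eligible. Of the genes with values, Runx2, Bglap, Alpl, Ibsp, Spp1, Col5a1, Col6a3, Col7a1, Hspa5, Mki67, Cdkn1a, Cdkn2a, Cryab, Hspa1a, Hoxb9, Fgf10, Fgf18, Isg15, Col2a1, Axin2, Ccr2 and Dok5 fall outside it and were chosen after their values were seen, and 1 gene called in CON-OLD-iBP against OLD is not reported here. A planned description of promoter CpG content is void, since 78.0% of tested genes had a promoter in the RefSeq table (GRCm38.p6), under the 80% needed, and no sequence is shown for this reason.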

Additional observations from a re-analysis of the deposited data

How the results depend on the processing

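In CON-OLD-iBP against YOUNG the count of 0 stayed at 0 with RLE size factors, upper-quartile scaling, no filter, a library set term, the replicate block and against YOUNG 3. It became 1389 with DESeq2, 4889 with limma-voom, 1 with the 6 libraries alone, 4731 against YOUNG 1 and 2 and 1680 with CON-YOUNG in place of YOUNG, and leaving out 1 library gave 0 to 2013 calls. In OLD against YOUNG the 0 became 41 with DESeq2, 1125 with limma-voom and 9 within the high Malat1 libraries, and 0 to 2 with 1 library left out. In CON-OLD-iBP against OLD the 4 calls became 2 with upper-quartile scaling, 2023 with DESeq2, 6663 with limma-voom, 30 with the 6 libraries alone, 2 with the replicate block, 0 with a set term and 142 within the high Malat1 libraries, and 0 to 1346 with 1 library left out. In CON-OLD-iBP against CON-YOUNG, with alternatives chosen after seeing the data, the 1680 calls became 437 within the high Malat1 libraries and 18 to 4492 with 1 library left out. The cause was not tested. The labels do not say what a replicate number marks, so whether it pairs samples is unknown. In CON-OLD-iBP against YOUNG, libraries sharing a number had deviations that correlated at -0.252, 0.299 and -0.036. Libraries of unlike number gave -0.302 to 0.356. These values cannot decide on pairing, because YOUNG 3 stands apart from YOUNG 1 and 2 and this split shapes the YOUNG deviations. The biological coefficient of variation, 51.9% with group coefficients and 33.9% with coefficients per group and set, limits what a group of 3 can show.
Of the 93 genes whose log2 fold change against YOUNG was followed, 74 kept their sign under every alternative and 19 did not. With CON-YOUNG in place of YOUNG the sign turned for Adgre1 (0.29), Bglap (3.42), Cdkn1a (1.30), Cdkn2a (1.38), Col2a1 (0.62), Col6a3 (-0.80), Col7a1 (-0.35), Csf1r (1.08), Egr2 (0.0917), Foxp1 (-0.0801), Hoxa5 (-0.16), Hoxb9 (-1.23), Hspa5 (-0.12), Igf1 (1.65), Spp1 (1.36) and Tnf (0.71). Against YOUNG 3 it turned for Cdkn2a (0.59), Cnn1 (0.57), Col6a3 (-0.43), Egr2 (0.18), Hspa5 (-0.33), Isg15 (0.59) and Runx2 (0.10), and against YOUNG 1 and 2 for Col2a1 (6.12) and Spp1 (0.47). A library set term turned Cdkn1a (0.0175), Cdkn2a (0.33), Hspa5 (-0.0925) and Isg15 (0.14), limma-voom turned Col2a1 (4.25) and Spp1 (0.47), and the replicate block turned Hspa5 (-0.00473) and Spp1 (0.0222). With 1 library left out, Cdkn2a lay between -0.447 and 0.111, Hspa5 between -0.247 and 0.205, Spp1 between -0.37 and 0.44, and Col2a1 between -5.04 and 6.08.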
